A study of Homo sapiens with 12 samples.

Results

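The mRNA of 2 groups of sunitinib-resistant clear cell renal cell carcinoma (ccRCC) libraries was compared, the 3 libraries labelled A498 sunitinib-resistant (A498-Su) and the 3 labelled 786-O sunitinib-resistant (here 786-O-Su), which are 6 of the 12 libraries of the series. The other libraries are 3 of each parental line, A498 and 786-O, and serve here as points of reference. A498 and 786-O are established human ccRCC lines that lack functional VHL. Both resistant lines were grown in medium with sunitinib, at 2 μM for A498-Su and 4 μM for 786-O-Su, over 4 months or more than 20 passages, and each is a single selected culture with a treatment label of none in all groups. Nothing says that the 3 libraries of a group came from separate cultures, so the p-values measure the spread between these libraries, which may be technical. Each group also has a batch label of its own, and therefore batch and group cannot be told apart in any comparison below.

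Sunitinib blocks a set of receptor tyrosine kinases, among them the PDGF and VEGF receptors, KIT, FLT3, CSF1R and RET. PDGFRB is the receptor for PDGF-B and is best known from pericytes and fibroblasts, the cells around blood vessels. ccRCC cells without VHL keep hypoxia-inducible genes on, store lipid and often secrete inflammatory chemokines under NF-kB, the transcription factor family that drives CXCL8, IL6 and TNFAIP3. Interferon-stimulated genes are induced by interferon signalling through JAK kinases and encode antiviral proteins such as the MX, OAS and IFITM families.

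Before any difference is read, the labels and the libraries need a check. Of 61 genes at 10 CPM (counts scaled to library size by the TMM method) or more in A498 and at most 3 counts in each 786-O library, the median level in the libraries labelled A498-Su was 0.353% of that in A498, and in 786-O-Su it was 0.248%. Of 26 genes with the opposite pattern, the median was 79.9% of the 786-O level in A498-Su and 93.9% in 786-O-Su. PHGDH, the first enzyme of serine synthesis, averaged 381 CPM in A498, 1.41 in A498-Su, 0.80 in 786-O-Su and 0.198 in 786-O, and GSTP1, a glutathione transferase, averaged 0.313, 485, 469 and 363 CPM in the same order. HIF1A was at 305 CPM in A498 and between 8.79 and 10.8 in the other 3 groups. The libraries labelled A498-Su therefore carry the gene set of 786-O and not that of A498, and the comparison below is between 2 groups of 786-O type. They are called by their label throughout. Of 12 renal carcinoma markers, 10 reached 1 CPM in each of the 6 libraries, while none of 17 leukocyte markers did, with summed levels of 1.48 to 1.72 CPM in A498-Su against 1.77 to 2.24 in 786-O-Su.

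The library of 786-O-Su replicate 2 stood apart. Over 9960 genes at 10 CPM or more, the log2 difference between A498-Su libraries had an SD of 0.085 to 0.094, and between 786-O-Su replicates 1 and 3 it was 0.116. Between 786-O-Su replicate 2 and its own replicates it was 0.290 and 0.295. Libraries of the 2 groups were 0.364 to 0.398 apart with 786-O-Su replicates 1 and 3, and 0.457 to 0.464 apart with replicate 2. The difference between the groups was thus wider than the spread within either, also against replicate 2. The A498-Su libraries held 20042519 to 25831163 counts, and those of 786-O-Su 42643735 to 46888482. The slope of log2 level on GC content was -0.124 to -0.091 per 10% GC in A498-Su against 0.074 to 0.155 in 786-O-Su, so that GC-poor genes stood relatively higher in A498-Su. The part of this trend in the results was checked by removing it together with a trend in gene length, and values after removal are given beside several of the lists below and in the plot of the program lists. Genes of the mitochondrial genome, mRNAs and others, took 1.58 to 1.80% of counts in A498-Su against 2.21 to 2.86% in 786-O-Su.

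**Figure D1:**
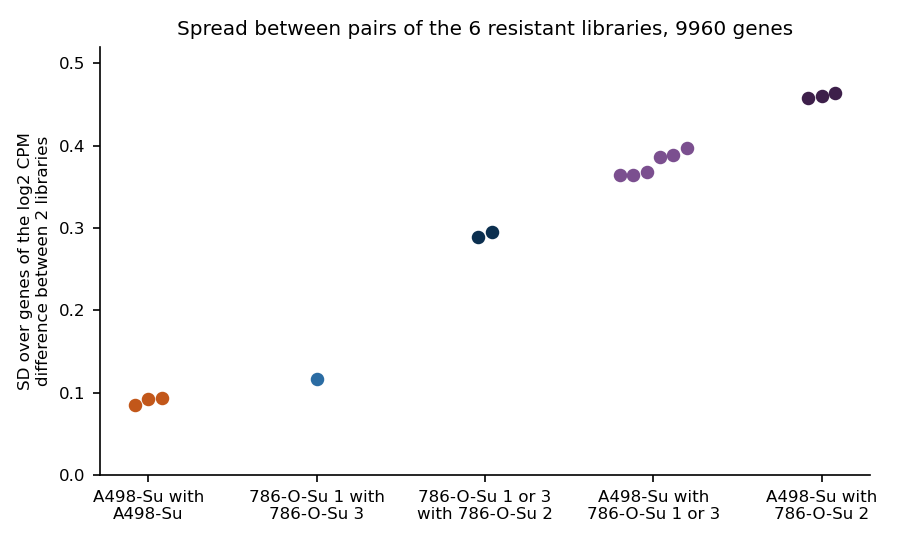
Each point is a pair of resistant libraries, and the vertical axis is the SD over 9960 genes of the log2 CPM difference between them. Pairs within A498-Su and the pair of 786-O-Su replicates 1 and 3 lie at or under 0.116, pairs with 786-O-Su replicate 2 inside its group near 0.290, and pairs between the groups from 0.364 to 0.464.

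Of 19929 genes tested with edgeR's quasi-likelihood test, 9180 (46.1%) differed between A498-Su and 786-O-Su at an adjusted p under 0.05, 4593 (23.0%) higher and 4587 (23.0%) lower in A498-Su. Most differences were small. Among 11129 genes with a mean of 10 CPM or more in any of the 4 groups, parental lines included, the median fold was 1.175. Of these genes 64.1% were within 1.25-fold and 3.25% were over 2-fold apart. Called and beyond 2-fold were 1455 genes (7.3%), 579 higher (2.91%) and 876 lower (4.4%) in A498-Su. The 3 libraries of one group did not overlap the 3 of the other in 10312 genes (51.7%), 26.1% of genes with A498-Su higher and 25.6% with A498-Su lower. By the same fit, 12683 genes (63.6%) differed between A498-Su and 786-O, 13643 (68.5%) between 786-O-Su and 786-O and 14793 (74.2%) between the parental lines, and beyond 2-fold the shares were 20.0%, 22.0% and 31.9%, with median absolute log2 fold changes of 0.47, 0.49 and 0.62 against 0.30 between the resistant groups. These contrasts share libraries and are given side by side only. Without 786-O-Su replicate 2, 10790 genes (53.3% of those tested) were called, 26.7% higher and 26.6% lower. Of the 4593 genes called higher, 4432 were called the same way without it, and of the 4587 called lower, 4284, with 0 called the opposite way. Beyond 2-fold, 554 of 579 and 820 of 876 were kept.

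PDGFRB (ENSG00000113721.14, GRCh38 5:150113839-150155872, protein coding) was among the largest differences. It had 145, 107 and 152 counts in A498-Su, or 5.41, 5.12 and 5.95 CPM, and 26, 5 and 25 counts in 786-O-Su, or 0.531, 0.115 and 0.547 CPM. All 3 A498-Su libraries lay far above all 3 of 786-O-Su, and 786-O-Su replicate 2 was the lowest of the 6. The log2 fold change was 3.76 ± 0.30 (SE, n = 3 and 3, adjusted p = 2.5e-07 by edgeR). Without 786-O-Su replicate 2 it was 3.35 (adjusted p = 2.9e-16), so the difference did not rest on that library, although replicate 2 added to its size. Parental libraries were as low as 786-O-Su, with 14, 10 and 8 counts in 786-O and 10, 3 and 8 in A498. Against 786-O the log2 fold change was 4.36 in A498-Su and 0.61 in 786-O-Su, where it was not called (adjusted p = 0.23). Among the 4 groups, A498-Su alone had PDGFRB above 1 CPM. No other gene shares exon bases with PDGFRB on either strand in the annotation.

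Other markers of pericytes and fibroblasts differed in either direction. The summed level of 12 such markers was 169 to 179 CPM in A498-Su, 87.1 to 110 in 786-O-Su and 76.1 to 80.3 in 786-O. Of 8 that were tested, PDGFRB among them, 4 were higher and 2 lower, where 23.0% of all genes were called in each direction. MCAM, an adhesion molecule of pericytes, endothelium and many carcinomas, made up most of the sum at 131 ± 3.51 against 73.2 ± 13.2 CPM (SD, n = 3 each, log2 fold change 0.84). RGS5, a pericyte regulator of G-protein signalling, was at 9.16 ± 0.574 against 2.87 ± 0.256 CPM (log2 fold change 1.67). LUM, which encodes the matrix proteoglycan lumican, had 15.6, 17.8 and 15.2 CPM against 7.33, 8.29 and 6.65 (log2 fold change 1.12). ACTA2, smooth muscle actin, went the other way (log2 fold change -0.79), and it shares exon bases with FAS on the opposite strand. NOTCH3, a receptor of mural cells looked up after the values were seen, was the other called lower and was barely detected, at a mean of 0.0249 against 0.209 CPM. DCN, a defining fibroblast gene, had 0 counts in all A498-Su libraries. What these markers add to the PDGFRB difference was not tested.

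The other kinases that sunitinib blocks were near absent. Of 9 target kinases only PDGFRB and CSF1R passed the filter on low counts, and CSF1R had a mean of 0.262 CPM in A498-Su and 0.308 in 786-O-Su (adjusted p = 0.69), with a log2 fold change of -0.23 that became 0.29 without 786-O-Su replicate 2. The other 7, KDR, FLT1, FLT3, FLT4, KIT, PDGFRA and RET, were at most at the 0.196 CPM that KIT had in A498-Su replicate 3, in any of the 6 resistant libraries. Of 4 PDGF ligands 2 were lower in A498-Su and 2 were not called. PDGFB, the main ligand of PDGFRB, had 27.5, 33 and 31.8 CPM in A498-Su and 62.3, 64.2 and 66.3 in 786-O-Su, without overlap (log2 fold change -1.07 ± 0.07, adjusted p = 3.4e-08), and the 786-O mean was 61.3 CPM, beside that of 786-O-Su. PDGFA, which signals through PDGFRA, was lower as well (log2 fold change -0.62). PDGFC had a log2 fold change of 0.10 (adjusted p = 0.25) and PDGFD one of -1.02 (adjusted p = 0.38) at no more than 0.183 CPM in any of the 6 libraries.

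Of 24 other receptor tyrosine kinases, 8 were called higher and 8 lower in A498-Su, where 23.0% of all genes were called in each direction. The median log2 fold change was 0.03. Without 786-O-Su replicate 2, 7 were higher and 11 lower, with a median of -0.05. EPHA4, an ephrin receptor, was higher in A498-Su (18.5, 19.3 and 18.9 against 10.6, 8.68 and 11.7 CPM, log2 fold change 0.87). ROR2, a Wnt5a receptor, was lower (9.32, 9.43 and 10.7 against 16.3, 18.6 and 18.9 CPM, log2 fold change -0.87), as was EPHA2 (log2 fold change -0.62). FGFR2, a fibroblast growth factor receptor, had 75.1, 73.7 and 73.6 CPM against 56.4, 20.8 and 62.4. Its log2 fold change of 0.67 fell to 0.32 without the low 786-O-Su replicate 2, and after removal of the GC and length trends it was not called (0.60, adjusted p = 0.061, edgeR). AXL, a TAM-family receptor, had 742 ± 10.2 against 720 ± 128 CPM and was not called (adjusted p = 0.71). The lowest and highest values of this list, looked up after the values were seen, were in genes of low level, MST1R at 0.257 against 1.91 CPM (log2 fold change -2.86) and INSR at 0.274 against 0.0579 CPM (log2 fold change 2.17).

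The 12 genes that were most increased in A498-Su and reached 5 CPM, PDGFRB among them, included 3 that are known from kidney tubules. CLDN16, a tight junction protein of the thick ascending limb of the kidney, had 11.9, 10.3 and 9.82 CPM against 0.776, 0.366 and 0.984 (log2 fold change 3.90 ± 0.23, adjusted p = 1.9e-08). CLDN2, the claudin of the leaky proximal tubule, had 41.2, 39.4 and 40.1 CPM against 3.55, 1.53 and 4.20 (log2 fold change 3.69). Both rose above 786-O, which had 0.224 and 2.43 CPM. KCNJ16, a potassium channel subunit of distal tubule, had 6.49, 5.50 and 6.77 CPM against 0.572, 0.618 and 0.743, and here A498-Su lay beside the parental 786-O mean of 5.96 CPM while 786-O-Su was below it. FLG, which encodes filaggrin of the epidermis, had 520, 570 and 633 CPM against 112, 66.9 and 127 (log2 fold change 2.50).

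UGT2A3, a glucuronosyltransferase of drug and bile acid metabolism, was at 10.1, 11.2 and 10.4 CPM against 1.57, 0.710 and 1.22 (log2 fold change 3.16). DHRS3, a retinaldehyde reductase, was at 33.5, 33.5 and 37.6 CPM against 4.98, 7.72 and 5.07 (log2 fold change 2.56), with 0.331 CPM in 786-O. AIF1L, an actin-binding protein, was at 34.6, 34.3 and 32.0 CPM against 5.37, 2.89 and 6.04 (log2 fold change 2.81). The remaining genes of this set of 12 were HS6ST2, a heparan sulfate sulfotransferase, the carboxypeptidase-like CPVL, the noncoding LINC02274 and FLG-AS1, with log2 fold changes of 2.67, 2.41, 3.11 and 2.43. FLG-AS1 lies opposite FLG, and its level was 14.8% of FLG in A498-Su and 15.5% in 786-O-Su. KRT7-AS was at 49.2 and 49.6% of KRT7 and PXN-AS1 at 47.1 and 45.6% of PXN. In other pairs the share differed between the groups, as for ELF3-AS1, at 67.1% of ELF3 in A498-Su against 118% in 786-O-Su, and FLG-AS1 had 9.06 CPM to 92.4 of FLG in 786-O and 1.46 to 1.83 in A498. Whether reads of partners on opposite strands were kept apart was not tested. Of 193 genes held for naming, 28 share exon bases with another gene on their own strand and 72 with one on the opposite strand, among them CLDN2, KCNJ16, IL6, SREBF1, STARD4, PDHX and SLCO2B1, and the counts of these are uncertain to that extent. Of the 12, 786-O-Su replicate 2 was the highest of its group only in DHRS3, and the middle one in KCNJ16 and CPVL. In the rest it was the lowest, that is, the farthest from A498-Su.

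**Figure D2:**
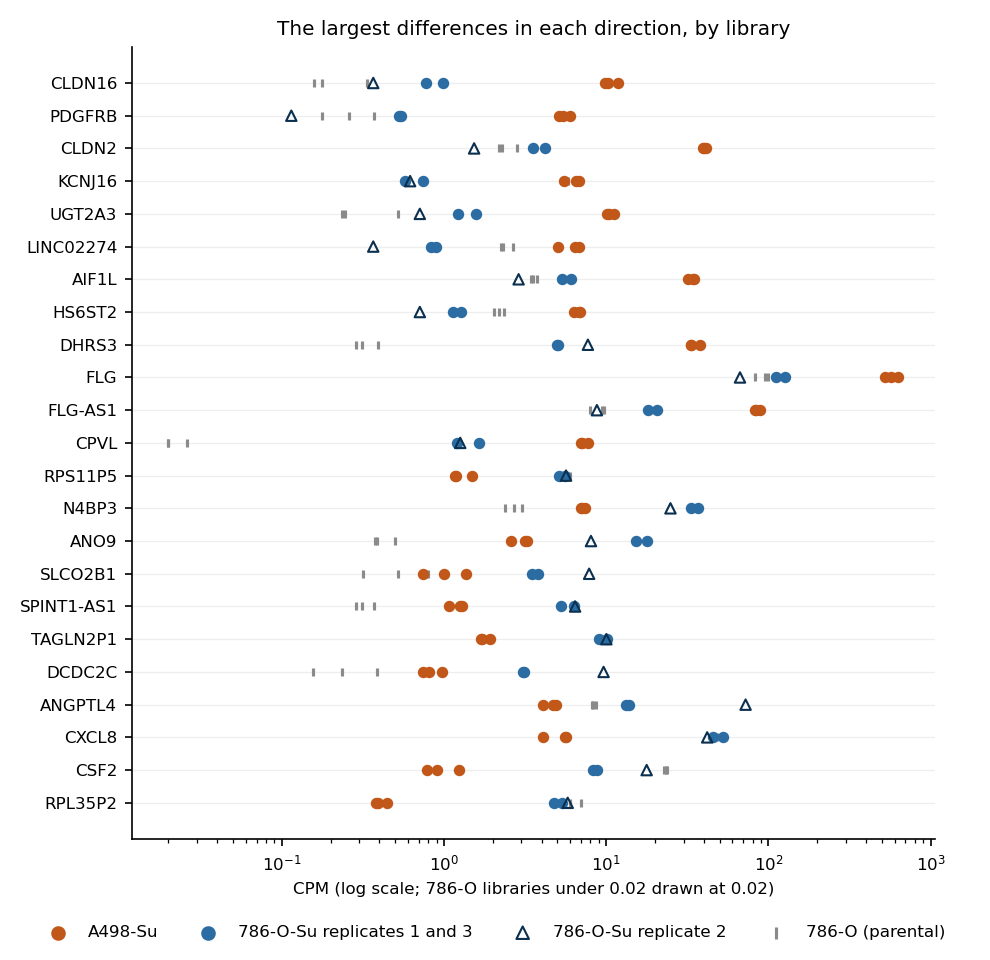
Genes with the largest log2 fold changes in each direction, 12 higher and 11 lower in A498-Su, by library, as CPM on a log scale. A498-Su libraries (filled orange), 786-O-Su replicates 1 and 3 (filled blue), 786-O-Su replicate 2 (open triangle) and 786-O libraries (grey ticks, drawn at 0.02 when lower) are shown. The genes were picked for having no overlap between the 2 resistant groups.

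The genes most decreased in A498-Su included the secreted factors CSF2, CXCL8 and ANGPTL4. CSF2, which encodes the cytokine GM-CSF, had 1.23, 0.909 and 0.782 CPM against 8.74, 17.8 and 8.29 (log2 fold change -3.55 ± 0.33, adjusted p = 9.6e-07). CXCL8, the neutrophil chemokine interleukin-8, had 5.67, 5.55 and 4.07 CPM against 52.4, 42.0 and 45.3 (log2 fold change -3.20 ± 0.11, adjusted p = 3e-10). The mean in 786-O was 46.3 ± 1.53 CPM (SD, n = 3), a log2 fold change of 0.01 to 786-O-Su and -3.19 to A498-Su, so that A498-Su was the low group of the 3. ANGPTL4, an inhibitor of lipoprotein lipase that responds to hypoxia, had 4.73, 4.07 and 4.93 CPM against 13.3, 72.4 and 13.9 (log2 fold change -2.85 ± 0.55, adjusted p = 0.00066). The level in 786-O-Su replicate 2 was far above that of its own replicates, and without it the log2 fold change was -1.56 (adjusted p = 9.8e-16).

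In further genes of this set the mean of 786-O-Su was above those of A498-Su and 786-O, apart from the pseudogenes below. N4BP3 had 33.3, 24.9 and 36.6 CPM in 786-O-Su, 7.01, 7.13 and 7.43 in A498-Su and a mean of 2.70 in 786-O. ANO9, a member of the anoctamin family, had 17.9, 8.06 and 15.2 CPM in 786-O-Su and 2.58 to 3.25 in A498-Su. SLCO2B1, an uptake transporter of organic anions and drugs, had a log2 fold change of -2.27. SPINT1-AS1, at -2.32, lies opposite SPINT1, and its level was 4.69% of that gene in A498-Su and 5.68% in 786-O-Su. SPINT1 itself, an epithelial serine protease inhibitor looked up after the values were seen, had a mean of 25.7 ± 0.575 CPM in A498-Su, 106 ± 10.5 in 786-O-Su and 5.92 in 786-O (log2 fold change -2.04). The processed pseudogenes RPL35P2, TAGLN2P1 and RPS11P5, at -3.68, -2.46 and -2.10, share sequence with expressed genes, and their counts are uncertain. Their means in 786-O-Su, at 5.30, 9.72 and 5.45 CPM, lay beside the 6.16, 9.39 and 5.54 of 786-O. DCDC2C, at -2.63, had 3.13, 9.64 and 3.08 CPM in 786-O-Su.

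CSF2 and CXCL8 were part of a group. Of 24 tested chemokines, interleukins and NF-kB outputs, 19 were lower in A498-Su and 1 was higher, where 23.0% of all genes were lower, with a median log2 fold change of -0.89 against -0.03 over all genes tested. The count was 20 lower without 786-O-Su replicate 2, and the median was -0.76 after removal of the GC and length trends. As a description of sequence, the 250 bases before the start of 4 of them follow. They are the 4 with the largest decreases among called members at 5 CPM or more whose promoter holds the NF-kB site core GGANNTTCC on either strand, taken from RefSeq (GRCh38.p14) and written 5′ to 3′ with matches in capitals.
CSF2 (chr5:132073539-132073788, plus strand): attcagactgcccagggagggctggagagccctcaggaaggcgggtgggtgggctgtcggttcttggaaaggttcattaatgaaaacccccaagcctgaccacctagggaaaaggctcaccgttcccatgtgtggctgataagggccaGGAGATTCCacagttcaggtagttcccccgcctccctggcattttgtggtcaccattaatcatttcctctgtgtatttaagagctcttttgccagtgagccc
CXCL8 (chr4:73740319-73740568, plus strand): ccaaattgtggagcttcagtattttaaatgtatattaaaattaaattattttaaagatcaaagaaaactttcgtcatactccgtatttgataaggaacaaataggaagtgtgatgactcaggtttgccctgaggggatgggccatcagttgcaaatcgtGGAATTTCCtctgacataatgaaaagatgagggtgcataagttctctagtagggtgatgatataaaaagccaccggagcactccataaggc
IL6 (chr7:22726950-22727199, plus strand): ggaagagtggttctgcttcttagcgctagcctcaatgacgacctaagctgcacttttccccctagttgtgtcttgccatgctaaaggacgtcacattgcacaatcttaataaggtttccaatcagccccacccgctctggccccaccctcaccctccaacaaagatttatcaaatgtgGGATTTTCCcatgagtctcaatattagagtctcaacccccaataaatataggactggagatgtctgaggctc
TNFAIP3 (chr6:137867009-137867258, plus strand): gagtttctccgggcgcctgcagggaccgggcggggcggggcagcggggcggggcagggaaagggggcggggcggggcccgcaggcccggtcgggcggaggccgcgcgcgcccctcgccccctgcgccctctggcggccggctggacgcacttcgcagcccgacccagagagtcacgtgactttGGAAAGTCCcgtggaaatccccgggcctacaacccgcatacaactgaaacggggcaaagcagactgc
The core was found in 14 of 23 promoters of the list and in 3.88% of 27305 promoters of the same length. It was found in 11 of the 15 promoters of genes called lower for which a sequence was at hand and in 2 of 4 that were not called. The promoters of TNF, CCL20, NFKB2 and BIRC3, also called lower, held no match. The list was drawn up to include NF-kB outputs, and the 4 printed promoters were picked for holding the core. A match is a run of letters and no evidence of binding, and a part of NF-kB in the decrease was not tested.

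IL6, the cytokine interleukin-6, had 14.0, 14.9 and 11.9 CPM in A498-Su and 55.5, 47.2 and 53.9 in 786-O-Su (log2 fold change -1.94 ± 0.09, adjusted p = 4.7e-09). TNFAIP3, the feedback inhibitor A20, had 18.1, 19.0 and 16.6 CPM against 71.6, 53.5 and 70.1 (log2 fold change -1.86). NFKBIA, the inhibitor IkB-alpha, and the subunit genes NFKB2 and RELB, all of them NF-kB targets too, had log2 fold changes of -0.94, -0.66 and -0.72. Secreted factor, feedback inhibitor and subunit genes were thus lower together. CXCL5 had 16.9, 17.1 and 15.3 CPM against 51.0, 68.0 and 44.0 (log2 fold change -1.72), and both groups were below a 786-O mean of 102 CPM. TNF and CXCL1 had large log2 fold changes, -3.28 and -3.16, at means of 0.390 and 0.381 CPM in A498-Su and 3.86 and 3.44 in 786-O-Su. ICAM1, an adhesion receptor for leukocytes, and CSF1, the macrophage growth factor, were at 304 ± 9.33 against 576 ± 63.9 CPM and 201 ± 3.83 against 365 ± 24.0 CPM.

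CCL2, the monocyte chemokine, was an exception in 786-O-Su replicate 2, with 11.5, 4.12 and 11.7 CPM against 4.70, 3.88 and 4.85 in A498-Su, so that the groups overlapped (log2 fold change -1.02, adjusted p = 0.0096). IL11, an interleukin-6 family cytokine, was the member that was higher, at 4.62, 2.97 and 3.72 CPM against 1.61, 3.00 and 2.08 (log2 fold change 0.78), also with overlap. CXCL10, CXCL11, IL1B and TNFAIP2 were not called. CXCL10 and CXCL11 are induced by interferon as well as NF-kB. Set against 786-O, the list median was -0.79 for A498-Su and 0.12 for 786-O-Su on the log2 scale.

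Interferon-stimulated genes were mostly higher in A498-Su. Of 40 tested, 29 were higher in A498-Su and 1 was lower, where 23.0% of all genes were higher, with a median log2 fold change of 0.45. Here 786-O-Su replicate 2 stood above its replicates by a median of 0.33 on the log2 scale, that is, nearer to A498-Su. Without it 37 were higher and 3 lower, with a median of 0.61. After removal of the GC and length trends 24 were higher and 0 lower, with a median of 0.36. The 250 bases before the start of 4 members follow, chosen as above with the core of the interferon-stimulated response element in capitals, that is, GAAA, any 2 bases and GAAA on either strand, and taken from RefSeq (GRCh38.p14).
IFITM1 (chr11:313790-314039, plus strand): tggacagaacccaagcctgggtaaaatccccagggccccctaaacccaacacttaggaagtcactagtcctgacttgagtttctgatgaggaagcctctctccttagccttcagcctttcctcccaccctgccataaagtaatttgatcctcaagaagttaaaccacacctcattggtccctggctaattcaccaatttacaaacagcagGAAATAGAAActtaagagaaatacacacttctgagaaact
IFI44L (chr1:78620198-78620447, plus strand): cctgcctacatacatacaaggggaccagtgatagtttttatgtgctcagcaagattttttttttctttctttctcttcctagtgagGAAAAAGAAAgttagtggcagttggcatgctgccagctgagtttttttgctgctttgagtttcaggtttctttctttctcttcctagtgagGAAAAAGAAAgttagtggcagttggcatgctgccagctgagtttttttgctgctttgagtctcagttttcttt
PARP14 (chr3:122680589-122680838, plus strand): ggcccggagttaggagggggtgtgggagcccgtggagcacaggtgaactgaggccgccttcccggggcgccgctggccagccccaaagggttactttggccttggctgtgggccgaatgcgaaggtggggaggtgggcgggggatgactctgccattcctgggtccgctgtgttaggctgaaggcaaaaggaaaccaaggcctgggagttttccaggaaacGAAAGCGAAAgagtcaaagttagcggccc
IFITM3 (chr11:320861-321110, minus strand): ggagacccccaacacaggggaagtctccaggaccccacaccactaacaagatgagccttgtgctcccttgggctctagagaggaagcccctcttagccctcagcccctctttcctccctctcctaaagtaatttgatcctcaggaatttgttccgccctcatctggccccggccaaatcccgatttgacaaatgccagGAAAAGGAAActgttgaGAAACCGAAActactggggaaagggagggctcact
The core was found in 18 of 32 promoters of the list and in 3.07% of all 27305, in 13 of 22 of genes called higher and in 4 of 9 that were not called.

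IFITM1, a membrane protein that blocks viral entry, had 43.1, 52.3 and 47.1 CPM in A498-Su and 10.8, 21.2 and 11.3 in 786-O-Su (log2 fold change 1.72 ± 0.20, adjusted p = 8.6e-06). The groups did not overlap, and the value without 786-O-Su replicate 2 was 2.1. The neighbouring IFITM3 had 448, 493 and 476 CPM against 219, 382 and 223 (log2 fold change 0.78). MX2 and OAS2, antiviral effectors, had 76.4, 81.7 and 74.8 against 33.7, 46.0 and 33.4 CPM and 305, 324 and 291 against 135, 175 and 142 CPM, with log2 fold changes of 1.04 and 1.03. PARP14, an ADP-ribosyltransferase, had 527, 520 and 520 against 317, 268 and 324 CPM, with replicate 2 lowest. The rise of that library was therefore not shared by every member.

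ISG15 and ISG20 show what 786-O-Su replicate 2 did to this list. ISG15, a ubiquitin-like modifier, had 538, 560 and 522 CPM in A498-Su and 411, 860 and 430 in 786-O-Su (log2 fold change -0.07, adjusted p = 0.79). ISG20, an antiviral exonuclease, had 25.9, 24.8 and 23.6 CPM against 15.6, 51.4 and 15.9 (log2 fold change -0.15). In both, A498-Su lay above 786-O-Su replicates 1 and 3 and below replicate 2. BST2, the tethering factor tetherin, was the member called lower (log2 fold change -0.22), at 431 ± 9.29 against 503 ± 49.4 CPM. Both resistant groups were far above 786-O, with list medians of 2.80 in A498-Su and 2.26 in 786-O-Su on the log2 scale, above the difference of 0.45 between them.

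**Figure D3:**
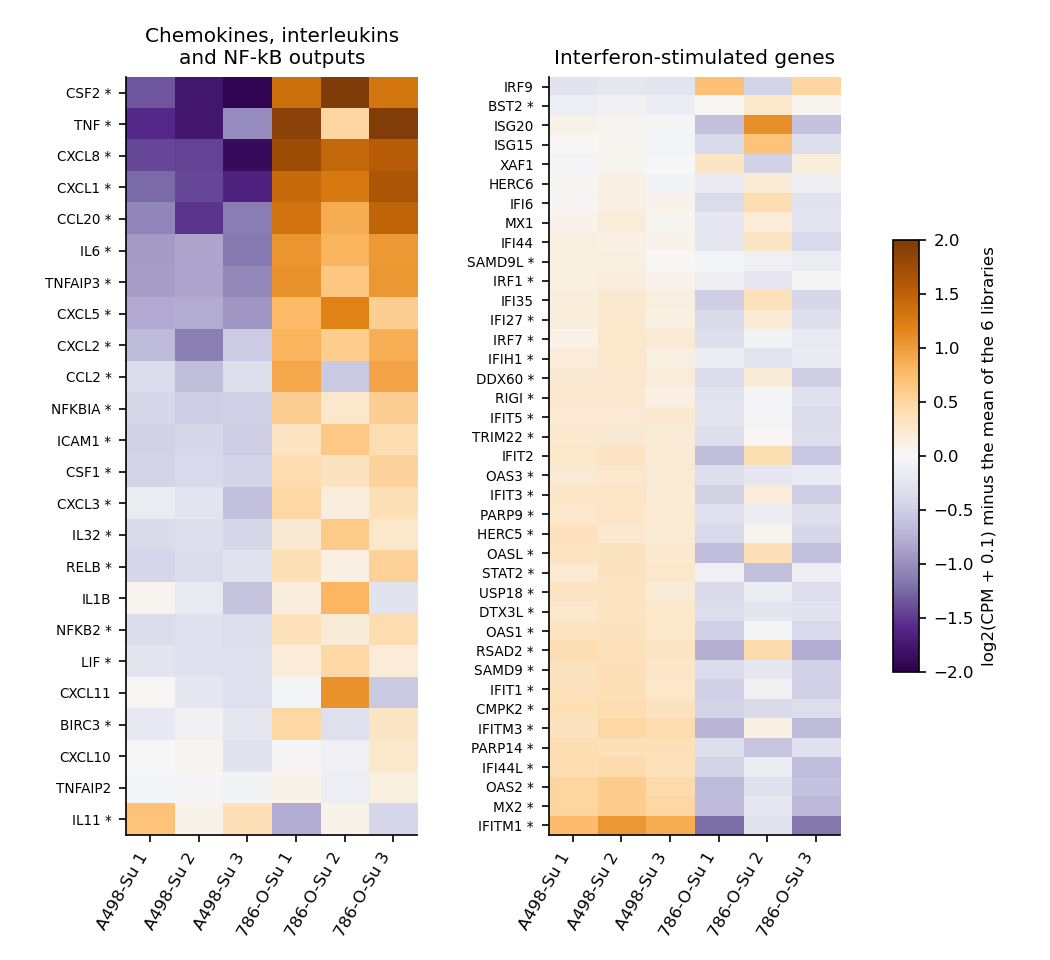
Log2(CPM + 0.1) of each tested gene in the 6 resistant libraries minus the mean of the 6, with colours limited to the range from -2 to 2 and an asterisk at genes called at an adjusted p under 0.05. In the chemokine and NF-kB list on the left, 19 of 24 genes are lower in A498-Su, and of the 39 genes drawn of the interferon list on the right 28 are higher, with 786-O-Su replicate 2 above its replicates in genes such as ISG15, ISG20 and IFITM1.

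Genes of antigen presentation and immune checkpoint ligands, many of which also respond to interferon, did not share one direction. Of 17 tested genes of MHC class I presentation, 2 were higher and 6 lower in A498-Su, where 23.0% of all genes were called in each direction, with a median log2 fold change of -0.12. HLA-F had 85.8, 86.6 and 85.5 against 153, 171 and 154 (log2 fold change -0.89). HLA genes are near-identical in parts and their reads may be split. B2M, the shared light chain, was higher at 3143 ± 78.5 against 2539 ± 266 CPM (log2 fold change 0.31). Of 11 checkpoint ligands, 4 were higher and 3 lower. LGALS9, galectin-9, had 35.4, 39.2 and 35.8 CPM against 13.2, 24.6 and 13.7 (log2 fold change 1.10), and shares exon bases with another annotated gene on its own strand. CD274, which encodes PD-L1, was at 8.94 ± 0.384 against 11.9 ± 5.09 CPM and was not called (adjusted p = 0.12), and 786-O-Su replicate 2 was 0.98 above its replicates on the log2 scale. PDCD1LG2, PD-L2, had 3.50, 3.21 and 2.82 CPM against 4.23, 14.0 and 4.37, so that a log2 fold change of -1.24 became -0.43 without 786-O-Su replicate 2.

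Genes of lipid synthesis were mostly higher in A498-Su. Of 19 tested genes of fatty acid synthesis and desaturation, 15 were higher and 2 lower, where 23.0% of all genes were called in each direction. The median log2 fold change was 0.49, and it was 0.47 without 786-O-Su replicate 2 and 0.37 after removal of the GC and length trends. SCD, the stearoyl-CoA desaturase, had 1476, 1536 and 1586 CPM against 895, 686 and 916 (log2 fold change 0.88 ± 0.09, adjusted p = 2.5e-06). SREBF1, the transcription factor of the pathway, had 128, 136 and 142 CPM against 75.8, 64.8 and 83.1 (log2 fold change 0.86), and FADS2, a polyunsaturated fatty acid desaturase, had a log2 fold change of 0.70. ACSL1, which activates long-chain fatty acids, had 98.9, 105 and 103 CPM against 58.5, 58.4 and 60.1 (log2 fold change 0.79). FASN, the synthase itself, was at 721 ± 48.9 against 676 ± 124 CPM and was not called (adjusted p = 0.45).

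Of 25 tested genes of sterol biosynthesis and uptake, 17 were higher and 2 lower, beside 23.0% of all genes in each direction, with a median log2 fold change of 0.26. After removal of the GC and length trends 20 were higher, with a median of 0.33. INSIG1, the sterol sensor partner that is itself a target of the pathway, had 441, 457 and 451 CPM against 188, 206 and 181 (log2 fold change 1.23 ± 0.05, adjusted p = 3.3e-09). STARD4, a cholesterol transfer protein, had 102, 102 and 105 CPM against 47.1, 44.7 and 40.0 (log2 fold change 1.23). The 6 libraries of these genes formed 2 tight groups, and 786-O-Su replicate 2 was with its own. SC5D and HMGCS1, enzymes of the pathway, had log2 fold changes of 1.05 and 0.73. PMVK, phosphomevalonate kinase, was lower (log2 fold change -0.54). In INSIG1 the 786-O mean of 305 CPM lay between the groups. The list differed from INSIG1 in this, with medians relative to 786-O of 0.88 in A498-Su and 0.51 in 786-O-Su on the log2 scale. By the median, both groups thus lay above 786-O.

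Genes of the Krebs cycle were mostly higher in A498-Su. A498-Su had higher levels of 22 and lower levels of 2 of the 35 tested genes of pyruvate dehydrogenase and the Krebs cycle (median log2 fold change 0.21). PDHX and DLAT, subunits of pyruvate dehydrogenase, had 40.6, 39.9 and 39.0 against 27.5, 28.7 and 26.5 CPM and 74.9, 76.7 and 71.2 against 49.4, 56.0 and 46.6 CPM (log2 fold changes 0.53 and 0.55). SDHD, a succinate dehydrogenase subunit, had 41.6, 41.0 and 42.3 CPM against 21.6, 22.0 and 17.4 (log2 fold change 1.04), and shares exon bases with a readthrough gene on its own strand. In PDHX, DLAT and SDHD the log2 fold changes to 786-O were 0.05, 0.10 and 0.18 in A498-Su and -0.48, -0.45 and -0.85 in 786-O-Su. The list medians relative to 786-O were 0.05 in A498-Su and -0.31 in 786-O-Su. Of 70 nuclear-encoded subunits of oxidative phosphorylation, 24 were higher and 11 lower, with a median of 0.10, where the background was 23.0% in each direction. Without 786-O-Su replicate 2, 38 were higher and 11 lower, with a median of 0.14, beside 26.7% and 26.6% of all genes. After removal of the GC and length trends 30 were higher and 8 lower, with a median of 0.08.

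Of 13 mitochondrially encoded mRNAs, 11 were lower in A498-Su and 0 higher, beside 23.0% of all genes in each direction, with a median log2 fold change of -0.56. MT-ND5, a complex I subunit, had 697, 711 and 828 CPM against 1677, 1158 and 1424 (log2 fold change -0.93 ± 0.14, adjusted p = 8.4e-05). MT-CO1, the largest subunit of complex IV, was at 3522 ± 239 against 5794 ± 650 CPM (log2 fold change -0.72). These mRNAs are part of the share of mitochondrial counts given above, and for them too batch and group cannot be told apart. The median relative to 786-O was -0.25 in A498-Su and 0.34 in 786-O-Su. LDHB, the lactate dehydrogenase subunit that favours pyruvate, had 15.9, 15.3 and 15.2 CPM against 5.35, 4.95 and 3.63 (log2 fold change 1.73) with a 786-O mean of 24.2, and it shares exon bases with another gene on its own strand. Glycolysis as a list had 7 genes higher and 8 lower of 25.

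Genes of amino acid supply were mostly higher in A498-Su. Of 38 tested genes of the ATF4 response, the transcription program of amino acid shortage and stress, 23 were higher and 2 lower. Over all genes 23.0% were called in each direction. The list median was a log2 fold change of 0.28, and it was 0.25 without 786-O-Su replicate 2 and 0.37 after removal of the GC and length trends. CTH, which makes cysteine from cystathionine, had 19.9, 22.1 and 20.1 CPM against 8.42, 8.72 and 8.92 (log2 fold change 1.25 ± 0.07, adjusted p = 1.1e-08). PSPH and PSAT1, enzymes of serine synthesis, had log2 fold changes of 0.62 and 0.61, and MTHFD2, of the mitochondrial folate cycle, 0.56. ASNS, asparagine synthetase, was at 1.27 ± 0.217 against 1.02 ± 0.223 CPM and was not called (adjusted p = 0.27). Of 24 amino acid transporters 15 were higher and 6 lower, with a median of 0.34, and after removal of the GC and length trends 13 were higher and 5 lower, with a median of 0.20. SLC6A6, the taurine transporter, had 94.2, 97.7 and 103 CPM against 48.8, 36.4 and 52.3, and SLC38A2, a glutamine transporter, had 153, 150 and 161 against 99.7, 85.9 and 89.0. For both, A498-Su was at the 786-O level and 786-O-Su below it (log2 fold changes to 786-O of 0.11 and 0.02 against -0.99 and -0.74).

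Where matrix genes differed, they were mostly lower in A498-Su. Of 23 tested collagens 10 were lower and 0 higher, where 23.0% of all genes were called in each direction. The median log2 fold change was -0.35, and it was -0.16 without 786-O-Su replicate 2. After removal of the GC and length trends it was -0.21, with 8 lower and 1 higher. COL16A1 had 1.90, 1.63 and 2.27 CPM against 6.90, 6.25 and 7.13 (log2 fold change -1.80 ± 0.12, adjusted p = 7.5e-08), and COL27A1 had 32.9, 34.3 and 37.7 against 94.5, 54.7 and 89.5 (log2 fold change -1.19). COL6A3, a chain of microfibrillar collagen VI, had 3.84, 3.40 and 3.05 CPM against 8.52, 26.0 and 8.27, and its log2 fold change of -2.04 was -1.29 without 786-O-Su replicate 2. Both groups were far below the 786-O mean of 210 CPM for COL6A3. Of 31 integrins, laminins and nidogens 15 were lower and 5 higher.

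LAMB3, a laminin chain of the epithelial basement membrane, was at 63.9, 56.8 and 59.7 against 145, 372 and 158 CPM, with a log2 fold change of -1.90, or -1.33 without 786-O-Su replicate 2. The integrin subunits ITGB6 and ITGB8, both of which activate latent TGF-beta, were higher, at 7.79, 8.66 and 8.49 against 4.04, 1.26 and 3.85 CPM and 121, 129 and 134 against 63.4, 39.6 and 62.0 CPM. Of 24 matrix proteases and inhibitors 12 were lower and 5 higher, beside 23.0% of all genes in each direction. MMP2, gelatinase A, had 8.57, 8.85 and 8.49 CPM against 15.3, 26.5 and 16.2 (log2 fold change -1.16), and ADAMTS15 went the other way, at 21.1, 21.3 and 22.3 against 7.48, 2.86 and 9.56 (log2 fold change 1.69). PLAUR, the urokinase receptor, had 40.3, 40.7 and 39.9 CPM against 50.9, 128 and 52.1, and its log2 fold change of -0.93 was -0.35 without 786-O-Su replicate 2.

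Genes of mitosis and the G2/M phase depended on 786-O-Su replicate 2 in size. Of 27 tested, 15 were higher and 1 lower in A498-Su, beside 23.0% of all genes in each direction. The median log2 fold change was 0.29, but replicate 2 was a median of 0.54 below its replicates. Without it 16 were higher and 3 lower with a median of 0.15, and after removal of the GC and length trends 8 were higher. TTK, a spindle checkpoint kinase, had 57.2, 53.3 and 52.5 CPM against 41.5, 27.6 and 36.8 (log2 fold change 0.62, 0.47 without replicate 2). TOP2A, topoisomerase II alpha, had 563, 542 and 541 CPM against 460, 281 and 441 (log2 fold change 0.48, 0.29 without replicate 2). PLK1, a mitotic kinase, was at 166 ± 4.48 against 160 ± 42.0 CPM and was not called (adjusted p = 0.78). DNA replication and G1/S genes had 10 higher and 4 lower of 31.

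Further programs, among them some known from drug response, had no such majority in one direction, beside a background of 23.0% each way. Of 17 kidney tubule identity factors 5 were higher, 1 was lower and 11 were not called, and of 17 genes of the epithelial state 4 were higher and 6 lower. Of 15 ABC transporters of drugs and lipids 5 were higher and 5 lower. ABCC2, an exporter of conjugates, had 4.55, 6.46 and 5.48 CPM against 2.17, 1.63 and 2.01 (log2 fold change 1.49), while ABCA3 had 30.6, 29.7 and 29.9 against 68.9, 56.3 and 73.0 (log2 fold change -1.14). ABCB1, the exporter P-glycoprotein, and ABCG2, an exporter that carries sunitinib, had log2 fold changes of 0.25 and 0.46. Hypoxia-inducible targets outside glycolysis had 7 higher and 9 lower of 25, and VEGFA, the angiogenic growth factor, was at 178 ± 4.71 against 211 ± 17.8 CPM (log2 fold change -0.25). NRF2 targets had 9 higher and 7 lower of 27, among them AKR1B10, an aldo-keto reductase, at 5.26, 5.07 and 5.56 against 1.10, 1.42 and 1.73 CPM (log2 fold change 1.91) with 5.27 CPM in 786-O. The BCL2 family had 6 higher and 5 lower of 17. BCL2, the founding anti-apoptotic member, had 22.6, 22.9 and 22.3 CPM against 12.7, 10.9 and 15.7 (log2 fold change 0.78).

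**Figure D4:**
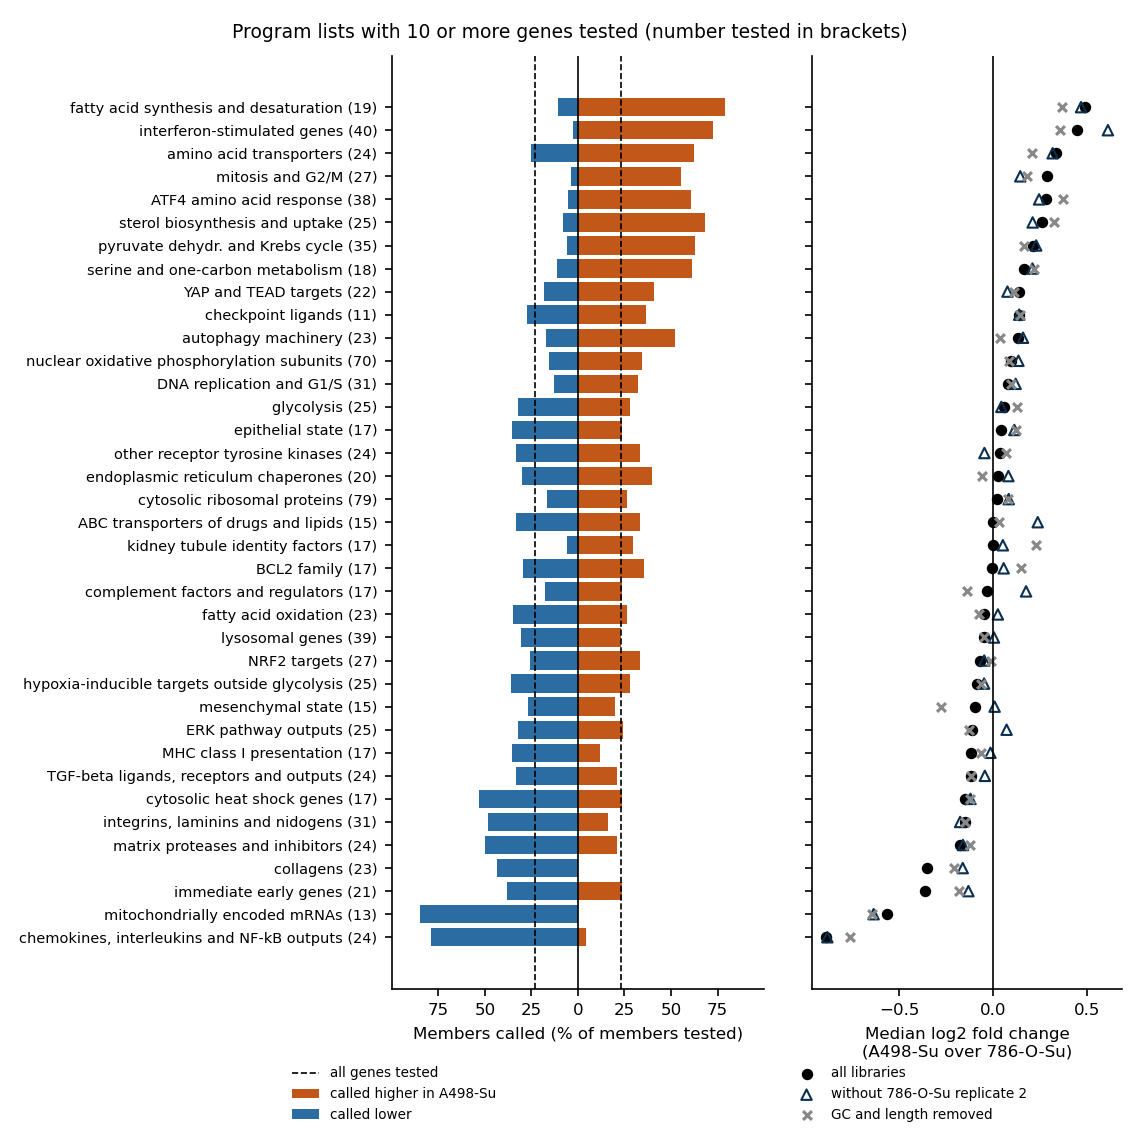
For the 37 program lists with 10 or more genes tested, the left panel gives the percent of tested members called higher (orange) and lower (blue) in A498-Su with the share over all genes as dashed lines, and the right panel the median log2 fold change with all libraries (filled), without 786-O-Su replicate 2 (triangle) and after removal of the GC and length trends (cross). Fatty acid synthesis with 15 of 19 and interferon-stimulated genes with 29 of 40 stand at the top, and mitochondrially encoded mRNAs with 11 of 13 and chemokines and NF-kB outputs with 19 of 24 at the bottom.

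Single members stood out in lists that were otherwise mixed. EGR1, an immediate early transcription factor, had 8.01, 8.71 and 8.29 CPM against 1.72, 1.99 and 2.47 (log2 fold change 2.02), while JUN and JUNB had log2 fold changes of -0.73 and -0.66. EREG, an EGFR ligand, had 49.8, 48.0 and 46.0 CPM against 19.1, 21.6 and 19.4 (log2 fold change 1.26), both far below the 786-O mean of 253. F3, tissue factor, had 44.0, 43.4 and 41.0 CPM against 119, 176 and 106 (log2 fold change -1.64). CD24, a surface glycoprotein of epithelial progenitors, had 462, 491 and 465 CPM against 215, 107 and 203 (log2 fold change 1.43). C3, the central complement protein, had 62.4, 65.8 and 62.7 CPM against 137, 197 and 148 (log2 fold change -1.34). PPARGC1A, a coactivator of mitochondrial and fatty acid oxidation genes, had 14.4, 15.4 and 15.3 CPM against 7.39, 7.67 and 7.17 (log2 fold change 1.02). In each of these genes the 2 groups did not overlap.

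Where the 786-O libraries lie shows which resistant group was displaced. Of the genes called higher in A498-Su beyond 2-fold, 323 had 1 CPM or more in a group. In 88 of them A498-Su alone was beyond 2-fold of 786-O, as in PDGFRB. In 63, 786-O-Su alone was beyond 2-fold of 786-O, as in KCNJ16 and AKR1B10 (the second by a log2 fold change of -1.90). Both groups were above 786-O in 106, both below it in 7 and on opposite sides in 5, and neither was beyond 2-fold in 54. Of 459 genes called lower, A498-Su alone was displaced in 98, as in CXCL8, and 786-O-Su alone in 145. Both were above in 79, both below in 23, opposite in 3 and neither in 111. Displacement of either group alone was therefore seen among genes called higher and among genes called lower. These counts were not set against all genes tested, as the genes were picked for being beyond 2-fold apart. For a group displaced alone, the side of 786-O was fixed by the choice of genes beyond 2-fold between the resistant groups. The comparisons share the 786-O libraries, and the classes follow from the levels of 3 groups.

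The effect of 786-O-Su replicate 2 can be stated gene by gene. Among 9925 genes at 10 CPM or more in 786-O-Su, replicate 2 was over 2-fold above its replicates in 36 and below in 39. It was the library farthest from A498-Su in 2246 of the 4593 genes called higher and in 2185 of the 4587 called lower, and the nearest in 1467 and 1737. A library that lies apart is more often an extreme, and the calls rest on a group mean that includes it. No share over all genes tested was taken, so these counts are a description only. TNC, the matrix protein tenascin-C, had 10.7, 55.1 and 11.5 CPM in 786-O-Su and a mean of 14.3 in A498-Su. It was not called with all libraries (log2 fold change -0.84) and was called higher in A498-Su without replicate 2 (0.37, adjusted p = 8.6e-05). EDN2, endothelin-2, had 9.54, 1.31 and 11.1 CPM with a mean of 5.72 in A498-Su and was called lower without replicate 2 alone (log2 fold change -0.84, adjusted p = 9e-09). Of the outputs of ERK signalling, replicate 2 was a median of 0.55 above its replicates, and the list median of -0.11 became 0.07 without it.

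By chromosome, the medians ran from -0.24 on chromosome 16, where 76 of 984 genes were higher and 399 lower, to 0.12 on chromosomes 4 and 18. The order followed GC content in part. Chromosome 22, with a median GC content of 55.7%, had -0.18, and chromosome 4, with 42.4%, had 0.12. After removal of the GC and length trends chromosome 22 was at -0.05 and chromosome 4 at -0.0006. Chromosomes 16, 7, 9 and 1 kept medians of -0.14, -0.11, -0.11 and -0.10. These shifts are small beside those of the named genes, and neighbouring genes are not independent, so no test was made.

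**Figure D5:**
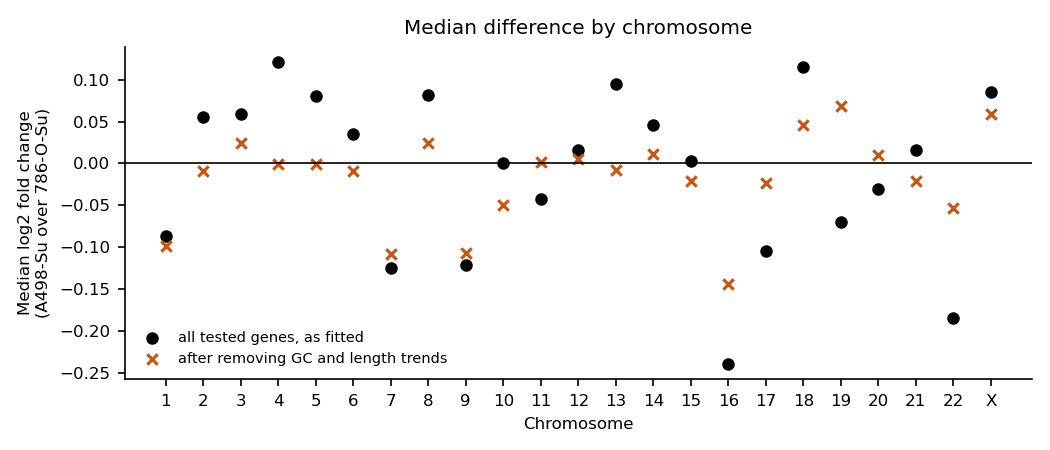
Median log2 fold change of the tested genes of each chromosome, A498-Su over 786-O-Su, as fitted (filled) and after removal of the trends with GC content and gene length (cross). Chromosome 16 is lowest at -0.24 and -0.14, and the values of chromosomes 4 and 22 approach 0 after removal.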

How the data were processed

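Poly(A)-selected, stranded, paired-end RNA-seq libraries were made from 12 samples, 3 in each of 4 groups. Per the labels and the study's methods, the authors trimmed reads with Trimmomatic 0.36.6 after bcl2fastq 2.19.0, aligned them to GRCh38 with HISAT2 2.1.0 and assigned them to GENCODE genes with featureCounts 1.6.3. The deposited values are raw counts per gene, with no normalization, for 45478 genes. No column of values was left unused.

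Genes were filtered with filterByExpr, which left 19929, scaled by TMM and tested with the quasi-likelihood test of edgeR 4.0.16 (R 4.3.3), with 4 groups and 12 libraries in one fit, no covariate and Benjamini-Hochberg adjustment over all genes tested. A gene was called at an adjusted p under 0.05. Tables and figures were made with Python 3.11.15. Levels are CPM and are compared between libraries within a gene, never between genes. On simulated data with 200 of 19668 genes changed 2-fold, the fit called 190 of the changed genes and 7 that were unchanged. The changed genes were drawn only from those of higher mean count, and far fewer were changed than were called here. The simulation therefore does not show how the fit does on genes of low counts or small folds. Total counts of 20042519 to 46888482 in the 6 libraries set the precision, and genes at low CPM rest on few reads. The libraries of a group differed by more than sampling noise and were each counted once. Replicate numbers did not pair the libraries.

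Groups were taken from the labels. The comparison, the lists and the tests were chosen with earlier results of these data known. Genes were named by a rule. It took PDGFRB with the other sunitinib targets and PDGF ligands, the 12 largest called differences in each direction at 5 CPM or more without overlap and also called without 786-O-Su replicate 2, up to 4 called members per list at 5 CPM or more, and genes that check the labels. Other list members and the genes set apart by 786-O-Su replicate 2 were chosen after their values were seen. Coordinates and overlaps of genes were taken from a later GENCODE annotation of GRCh38. Promoters were the 250 bases before each gene's start in RefSeq (GRCh38.p14). Alternatives were each library left out, the 6 libraries alone, DESeq2 1.42.0, other filters and scalings, thinning to equal depth, removal of GC and length trends and a replicate block. Results of some genes are not reported here, and they were left out of the figures.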

Additional observations from a re-analysis of the deposited data

How the results depend on the processing

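The number of genes called was 9180, and it was 8646 with DESeq2, 8077 after removal of the GC and length trends, 8395 at equal depth, 9162 without TMM, 9010 without the filter and 7252 with the 6 resistant libraries alone. It ranged from 7591 to 10790 when each library was left out in turn, genes called beyond 2-fold from 1320 to 1700 and PDGFRB from 3.35 to 4.04 on the log2 scale, with the extremes of the first 2 counts at A498-Su replicate 1 and 786-O-Su replicate 2. A test against a minimum log2 fold change of 1 called 217 genes, 128 higher and 89 lower. With at least 10 counts in each of the 6 libraries 704 genes were called beyond 2-fold, of fewer genes tested, and PDGFRB was not among those tested. A fit chosen after seeing the data, of the 6 libraries without 786-O-Su replicate 2, called 10420.

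Same-numbered libraries of the 2 groups did not deviate together, with correlations of -0.05, -0.02 and 0.04, so the numbers do not pair them. With a replicate block 8974 genes were called, 1401 beyond 2-fold, and PDGFRB was at 3.79. The block changed no call among the named genes.

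Over all alternatives, 2899 values of named genes kept their direction and side of the threshold, 48 lost the call and 4 gained it. The direction turned in CSF1R without 786-O-Su replicate 2 (0.29, where leaving out each library in turn gave -0.45 to 0.29) and, after removal of the GC and length trends, in PDGFC (-0.024) and BAD (0.10). The cause was not tested. List medians moved by more than the spread between replicates in 112 of their values, while 638 did not. The depth of A498-Su limits genes under 1 CPM, among them most kinases that sunitinib blocks.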

Other observations

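Cell cycle inhibitors and the machinery of autophagy were not described above. Of 9 tested D-type cyclins and CDK inhibitors, 4 were higher in A498-Su and 1 lower, where 23.0% of all genes were called in each direction. CDKN1B, the CDK inhibitor p27, had 46.6, 42.7 and 47.3 CPM in A498-Su and 26.0, 19.5 and 27.0 in 786-O-Su (log2 fold change 0.91), without overlap. Of 23 autophagy genes 12 were higher and 4 lower, but 7 and 3 after removal of the GC and length trends. Endoplasmic reticulum chaperones went from 8 higher and 6 lower of 20 to 0 and 7 under the same removal. The counts of both lists therefore moved with the GC and length trends of the libraries.

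Fatty acid oxidation was mixed, with 6 higher and 8 lower of 23, beside 23.0% of all genes in each direction. ACADVL, the very long chain acyl-CoA dehydrogenase, was lower, at 151, 150 and 151 CPM against 315, 239 and 314 (log2 fold change -0.94).

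Other response element cores were searched on both strands of the 250 bases before the start of each list's members, as a description only. The hypoxia response element core NACGTG was in 12 of 20 hypoxia-inducible targets and in 18.6% of all promoters, and the ATF4 core TGATGNAA was in 6 of 32 genes of the amino acid response and in 3.19% of all. By call, the ATF4 core was in 1 of 20 genes called higher, 0 of 1 called lower and 4 of 10 not called. The antioxidant response element core TGANNNNGC was in 11 of 19 NRF2 targets against 35.4%, and the sterol regulatory element core TCACNCCAC in 1 of 18 sterol genes against 0.875%. The metal response element core TGCNCNC was in 5 of 6 promoters of the metallothionein list against 48.4%. These 6 include SLC30A1, with a match, and MTF1, without one, which are not metallothioneins themselves. The AP-1 site TGANTCA was in 0 of 19 immediate early genes and in 6.6% of all promoters.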
